A study of Mus musculus with 8 samples.

Results

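The genes described here were H1foo, H1f0, Npm2, Slbp, H3f3a, H3f3b, H2afz, H2afv, H2afx and H2afy, that is, the linker histone of the oocyte, histone variants made outside of DNA replication, a histone chaperone of the egg and the protein that binds histone mRNA. They were chosen by symbol, and all 10 were found among the 25574 genes of the expression table. Their mRNAs were compared between 4 non-polysomal (NP) and 4 polysomal (P) libraries of mouse oocytes at nuclear envelope breakdown (NEBD). All libraries came from oocytes of CD1 mice aged 8 weeks, which were collected 46 h after 5 IU of pregnant mare serum gonadotropin, freed of cumulus cells and cultured for 180 min without the inhibitor IBMX. Cycloheximide at 0.1 mg/ml, which holds ribosomes on the mRNA, was given to both datasets for 10 min, and there was no genetic or drug contrast. Each sucrose gradient was loaded with 200 pooled oocytes and cut into 10 fractions. Those with free ribosomal subunits and monosomes gave an NP library and those with polysomes a P library. Per the study, the NP fractions also contain stored particles of mRNA and protein. The top fraction went into neither library, and the study could not exclude that it held a small part of such particles. Values are FPKM, which are scaled by the length of the gene and the size of the library, so a level is a share of its own library, and a ratio of P to NP is not the proportion of an mRNA's molecules that were on polysomes.

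Chromatin of the oocyte is built largely from proteins that are made and stored during growth. H1foo encodes the linker histone of oocytes and early embryos, and Npm2 encodes nucleoplasmin 2, an oocyte chaperone of histones that is needed for the organisation of the nucleus after fertilisation. Replication-dependent histone mRNAs end in a stem-loop rather than a poly(A) tail, and the stem-loop binding protein encoded by Slbp is required for their processing and translation. The replacement variants H3.3, H2A.Z, H2A.X and macroH2A come from genes that are also used outside of S phase. During meiotic maturation transcription is silent, and many stored mRNAs are recruited to ribosomes through sequences close to their 3′ ends, among them the cytoplasmic polyadenylation element (CPE), which is bound by CPEB proteins.

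The 3′ ends are shown first, since signals of the kinds described above are found there. Their effect on these 10 mRNAs was not tested. In the GENCODE M21 annotation of GRCm38, 1 transcript per gene was examined. A CPE, searched as TTTTAT or TTTTAAT on the transcript strand in the last 100 bases of the transcript, was present in H1foo, H2afv and H2afx and in none of the remaining 7 genes. The same window held a CPE in 19.4% of the 10983 tested genes with an annotated 3′ UTR of at least 100 bases. A polyadenylation signal, searched as AATAAA or ATTAAA in the same window, was present in 9 of the 10 genes, all but H2afy, against 81.3% of those 10983 genes. A histone stem-loop was found in the 3′ UTR of H2afx alone among the 10 genes, and in 35 of those 10983 genes (0.319%). Tested genes with a shorter 3′ UTR were not searched, so this is not the share among all tested genes. H2afx therefore carries both kinds of 3′ end signal, the stem-loop starting 46 bases after the stop codon and the polyadenylation signal lying near the end of a 3′ UTR of 884 bases. The windows printed are 5′ to 3′ on the transcript strand, with the stem-loop, the CPE or the polyadenylation signal in capitals. They lie at chr9:44335233-44335262 (+ strand) for the H2afx stem-loop, chr9:44336029-44336058 (+) for the H2afx CPE, chr6:115950159-115950188 (+) for the H1foo CPE, chr11:6427270-6427299 (− strand) for the H2afv CPE and chr3:137866885-137866914 (+) for the signal of H2afz, whose window held no CPE. In H2afx the CPE shares bases with the polyadenylation signal ATTAAA.
H2afx stem-loop: ccacaaaGGCCCTTTTAAGGGCCaccacct
H2afx CPE: aatgggctaaTTTTATtaaaggatcgtttg
H1foo CPE: attctgaagcTTTTATtgtctaataagctg
H2afv CPE: tgaagaaataTTTTATtatggaagttctga
H2afz polyadenylation signal: ctctgcttactaATTAAAcagtgcatctgt

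The libraries were first checked for depth and for other cell types. Depth, recovered from the steps between FPKM values as each library's scaling number, ran from 1299377 to 7594637 for NP and from 2677946 to 4699328 for P, so that 1 read on a gene of 1 kb was worth 0.132 to 0.770 FPKM in NP and 0.213 to 0.373 FPKM in P. All 10 oocyte markers were present, with sums of 6247 to 12026 FPKM in NP and 8208 to 33152 FPKM in P. Of 14 granulosa and cumulus markers, 3 had a mean above 1 FPKM, the highest being Cyp19a1 at a mean of 24.8 FPKM over all libraries. Of the same markers, 5 (Ptx3, Foxl2, Inhba, Has2 and Amhr2) were at 0 in all libraries. The sums of the 14 were 6.25 to 124.6 FPKM in NP and 16.2 to 62.6 FPKM in P. Of 6 blood and stromal markers in the table, 1 (Pecam1) had a mean above 1 FPKM and 3 (Ptprc, Hba-a1 and Col1a1) were at 0 throughout. The sums were 11.04 to 63.5 FPKM in NP and 6.36 to 77.8 FPKM in P.

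None of the 10 mRNAs passed the test between P and NP. The test was limma, fitted to log2(FPKM + 1) for all 14292 genes whose mean exceeded 0.1 FPKM in NP or in P, and its Benjamini-Hochberg adjusted p, taken over all of these genes, had a threshold of 0.1. Of all genes tested 3 were called, a share of 0.021%, and a count of 0 among 10 does not set these genes apart. A second test, limma with voom on the reads recovered from the FPKM values, called 119 of 13194 genes (0.902%) and also none of the 10. At an unadjusted p below 0.05, 1 of the 10 passed (H2afv) against 9.95% of all genes tested. P and NP libraries did not overlap for a single gene of the 10, H2afz, which was higher in P. This held in the direction of P for 0.357% of genes tested, and in the direction of NP for 5.92% of them and for none of the 10. The log2 fold changes, given as P over NP, were above 0 for 4 genes and below 0 for 6, with a median of −0.27 beside −0.39 over all genes tested. Since that overall median was below 0, 6 of the 10 lay above it although only 4 lay above 0. The median of all genes tested moved to −0.02 after quantile normalization and to 0.57 after each library was centred on its median. Centring adds the same amount to the fold change of every gene. The p-values measure the spread between these libraries, which were amplified from small inputs. The study describes 4 independent biological replicates, and each gradient gave 1 NP and 1 P library. No label says that a replicate number marks the same gradient, so the fit left this pairing out.

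**Figure D1:**
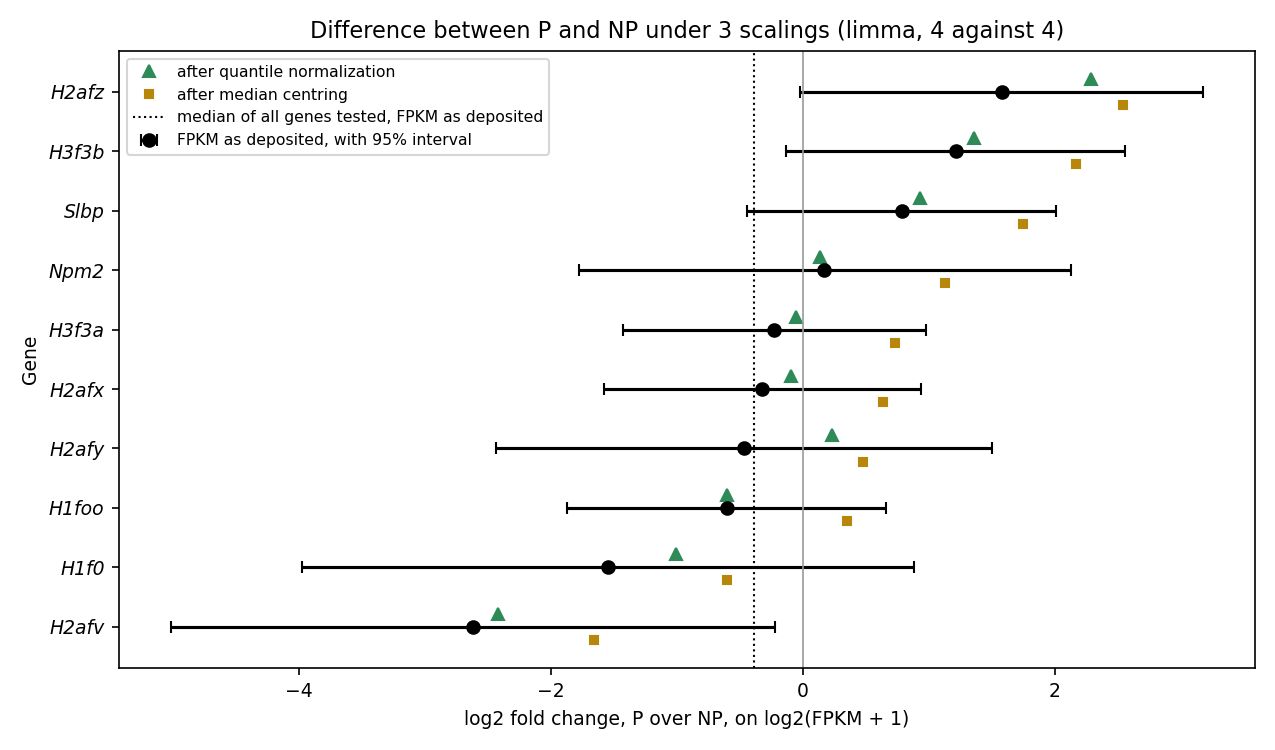
Log2 fold change of each gene, P over NP, on the log2(FPKM + 1) scale (x axis), with 95% intervals from limma for the FPKM values as deposited (black) and the values after quantile normalization (green) and median centring (gold); the dotted line is the median of all genes tested. H2afz, at 1.58, and H2afv, at −2.62, lie at opposite ends, and the interval of H2afv is the only one that does not include 0.

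H1foo mRNA was among the most abundant mRNAs of both datasets. Its gene lies at chr6:115944938-115950236 on the + strand, and its transcript has 5 exons and a 3′ UTR of 153 bases, the shortest of the 10. The NP libraries 1 to 4 held 2444, 1818, 1084 and 1075 FPKM, and the P libraries 2206, 1008, 472 and 923 FPKM. Replicate 1 was highest in both datasets, and the 2 ranges overlapped from 1075 to 2206 FPKM. The NP mean of 1605 ± 659 and the P mean of 1152 ± 741 FPKM (SD, n = 4 each) held the ranks 29 and 52 among genes tested. In every library H1foo stood at or above the 99.26th percentile. P over NP, the log2 fold change was −0.60 (SE 0.59), with a limma adjusted p of 0.691, and it became 0.35 after median centring. The depth behind these levels was 2521 to 12452 reads a library.

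The somatic-type linker histone H1f0, which encodes H1.0, a variant typical of cells that have left the cycle, was far less abundant (chr15:79028212-79030498, + strand, 1 exon). It was measured at 37.4, 17.2, 8.65 and 0.633 FPKM in NP and at 11.4, 5.05, 0.984 and 0 FPKM in P. The lowest value of each dataset was in replicate 4, where NP had 11 reads and P had none, a count of 0 that allows up to 0.490 FPKM. The means were 16.0 ± 15.8 and 4.35 ± 5.16 (SD, n = 4 each), and the ranges overlapped. Their ratio, 0.272, was 0.493 without NP replicate 1 and 0.126 without P replicate 1. The log2 fold change of −1.55 (SE 1.13) had a limma adjusted p of 0.642. Between the pair of linker histones, H1foo made up 98.5% to 99.9% of the summed FPKM in NP and 99.5% to 100.0% in P.

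Npm2 mRNA, at chr14:70647302-70653084 on the − strand, had the highest mean of the 10 genes in P, and that mean came mainly from 1 library. The NP values were 285, 743, 326 and 597 FPKM. The P values were 552, 166, 156 and 4606 FPKM, of which replicate 4 held 84.1% of the sum. The other P libraries lay between 156 and 552 FPKM, 2 of them below every NP library. The means of 488 ± 220 in NP and 1370 ± 2165 in P (SD, n = 4 each) gave a ratio of 2.81, which was 0.597 without P replicate 4. Limma gave a log2 fold change of 0.17 (SE 0.91), with a limma adjusted p of 0.941, and −0.89 without P replicate 4. In all libraries Npm2 was at or above the 96.47th percentile of genes tested. Its exons share 39 bases with Xpo7 on the same strand, 3.76% of their length, and Xpo7 itself was at a mean of 15.3 FPKM in NP and 9.10 FPKM in P.

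Slbp mRNA (chr5:33634952-33652574, − strand, 8 exons) was measured at 70.7, 72.6, 65.8 and 100.0 FPKM in NP, the narrowest spread of the 10 genes in that dataset relative to its mean. In P it was at 234, 85.5, 76.8 and 199 FPKM. P replicates 1 and 4 lay above the highest NP library, while replicates 2 and 3 lay within the NP range. The means were 77.3 ± 15.4 in NP and 149 ± 79.6 in P (SD, n = 4 each), a ratio of 1.93. For Slbp the log2 fold change of 0.79 (SE 0.57, 95% interval −0.44 to 2.01) had a limma adjusted p of 0.640. It was 0.93 after quantile normalization and 1.75 after median centring. A stretch of the genome outside of the gene matched the Slbp coding sequence at 95% identity or more over at least 80% of its length, so reads may have been shared with it.

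**Figure D2:**
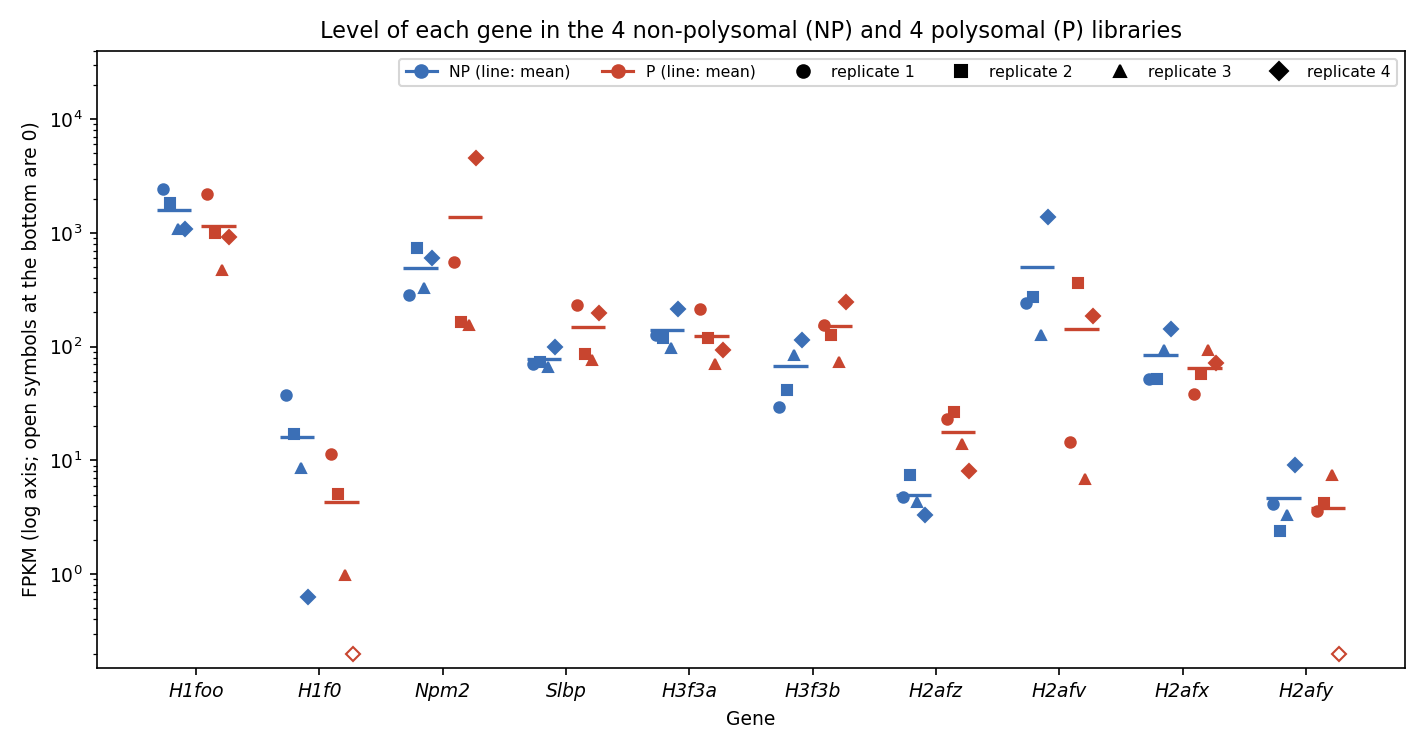
FPKM of the 10 genes (log axis) in the 4 NP (blue) and 4 P (red) libraries, with lines at the means, symbols by replicate number, and open symbols for values of 0. H1foo and Npm2 lie above 100 FPKM in all libraries, H2afz has every P library above every NP library, and single high libraries stand apart for Npm2 in P and for H2afv in NP.

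The pair of genes for the replacement histone H3.3 showed different values although they encode the same protein. The coding sequences of H3f3a (chr1:180800832-180813943, − strand) and H3f3b (chr11:116021912-116027962, − strand) have 316 of 411 bases in common (76.9%), and the 136 residues encoded do not differ at any position. H3f3a was at 128, 119, 97.6 and 216 FPKM in NP and at 215, 120, 70.9 and 93.4 FPKM in P. The ranges overlapped almost throughout, the means being 140.0 ± 52.4 and 125 ± 63.2 FPKM (SD, n = 4 each). In the fit, H3f3a had a log2 fold change of −0.23 (SE 0.56), with a limma adjusted p of 0.872, which turned to 0.73 after median centring. H3f3b was at 29.6, 41.6, 84.3 and 115 FPKM in NP and at 156, 127, 73.6 and 249 FPKM in P. All P libraries but replicate 3 lay above the highest NP library, and the means were 67.6 ± 39.3 and 151 ± 73.6 FPKM (SD, n = 4 each), a ratio of 2.24. For H3f3b the log2 fold change was 1.22 (SE 0.63, 95% interval −0.13 to 2.56), with a limma adjusted p of 0.530, 1.36 after quantile normalization and 2.17 after median centring.

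A share of 2 genes within a library does not depend on how the libraries were scaled to each other. H3f3a made up 81.2%, 74.0%, 53.7% and 65.3% of the FPKM of both H3.3 genes in NP, and 57.8%, 48.6%, 49.1% and 27.3% in P. The mean share was 68.5% ± 11.9 in NP and 45.7% ± 13.0 in P (SD, n = 4 each), a difference of −22.8 percentage points that lay between −27.8 and −16.7 when any 1 library was left out. The datasets met only at their edges, with P replicate 1 above NP replicate 3 and the other 3 P libraries below all NP libraries. The H3.3 genes together were at 157, 160, 182 and 331 FPKM in NP and at 371, 246, 145 and 342 FPKM in P, ranges that overlapped. These values carry a limit of mapping: 16 other places in the genome matched the coding sequence of H3f3a and 2 that of H3f3b at 95% identity or more over at least 80% of its length, and 638 exonic bases of H3f3a (18.2%) are covered by the noncoding gene Gm17275 on the opposite strand, with the strand setting of the counting not given in the sources used here.

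H2afz was the member whose datasets did not overlap. H2afz (chr3:137864487-137866922, + strand) encodes H2A.Z.1, a form of the variant H2A.Z, which is placed in nucleosomes by the SRCAP and p400 complexes. It was at 4.76, 7.37, 4.33 and 3.34 FPKM in NP and at 23.01, 26.5, 13.9 and 7.99 FPKM in P. The closest libraries were NP replicate 2, with 17 reads, and P replicate 4, with 38 reads, and their exact Poisson 95% intervals, 4.29 to 11.8 and 5.65 to 10.97 FPKM, overlapped. The means were 4.95 ± 1.72 and 17.9 ± 8.45 FPKM (SD, n = 4 each), a ratio of 3.61 that lay between 3.03 and 4.31 without any 1 library. The log2 fold change was 1.58 (SE 0.74, 95% interval −0.02 to 3.18), which was at the 99.03rd percentile of genes tested, but its limma adjusted p was 0.505. It was 2.29 after quantile normalization, 2.54 after median centring and 1.87 (SE 1.12) with voom on the recovered reads, where the limma adjusted p was 0.487. At 2 other places the genome matched the H2afz coding sequence at the identity used for H3f3a, 1 of them within the gene Tmcc1.

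H2afv, which encodes H2A.Z.2, went the opposite way in its values. The coding sequences of H2afz and H2afv have 306 of 387 bases in common (79.1%), and the proteins differ at 3 of 128 residues. H2afv (chr11:6427226-6444443, − strand) was at 244, 272, 126 and 1376 FPKM in NP and at 14.4, 364, 6.86 and 185 FPKM in P. NP replicate 4 held 68.2% of the NP sum, and the P libraries differed from each other by up to 53.0-fold, with P replicates 1 and 3 below all NP libraries and P replicate 2 above 3 of them. The means were 505 ± 584 and 142 ± 169 FPKM (SD, n = 4 each), a ratio of 0.283, which was 0.666 without NP replicate 4 and 0.136 without P replicate 2. Its log2 fold change of −2.62 (SE 1.12, 95% interval −5.02 to −0.22) was at the 1.92nd percentile of genes tested, with a limma adjusted p of 0.471, and it was −2.42 after quantile normalization and −1.66 after median centring. The depth was 50 to 1912 reads in P and 579 to 17123 reads in NP, and these reads come from amplified cDNA and are not counts of molecules. No place outside of the gene matched its coding sequence at the identity used above.

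Within each library, H2afz made up 1.91%, 2.64%, 3.31% and 0.242% of the FPKM of both H2A.Z genes in NP and 61.5%, 6.79%, 67.0% and 4.14% in P. All P libraries lay above all NP libraries, which partly repeats the separation of H2afz itself. The closest were P replicate 4 at 4.14%, with 38 H2afz reads, and NP replicate 3 at 3.31%, with 56 reads. Counting error was not carried into the shares, and how often other gene pairs separate in this way was not counted. The mean share was 2.03% ± 1.32 in NP and 34.9% ± 34.0 in P (SD, n = 4 each), but the P libraries fell into 2 that were mostly H2afz, replicates 1 and 3, and 2 that were mostly H2afv, replicates 2 and 4. The difference of 32.8 percentage points ranged from 22.1 to 43.1 when 1 library was left out. The summed level of both genes followed H2afv, at 249, 279, 131 and 1379 FPKM in NP and 37.4, 390.4, 20.8 and 193 FPKM in P. These ranges overlapped.

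**Figure D3:**
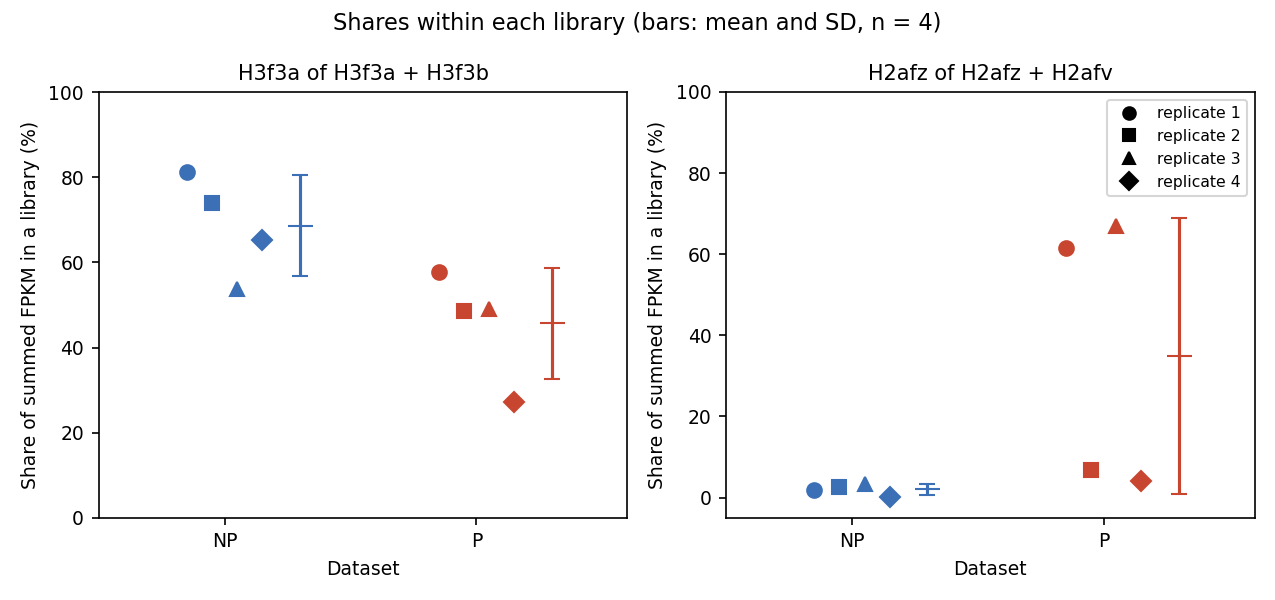
Share of H3f3a in the summed FPKM of the H3.3 genes (left) and of H2afz in that of the H2A.Z genes (right), in percent, for each NP (blue) and P (red) library, with the mean and SD (n = 4). For H3f3a 3 of the 4 P libraries lie below the lowest NP library, at 53.7%, and for H2afz all P libraries, from 4.14%, lie above the highest NP library, at 3.31%.

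H2afx encodes H2A.X, which is phosphorylated around DNA breaks (chr9:44334715-44336071, + strand, 1 exon). It was at 51.9, 52.2, 94.0 and 142 FPKM in NP and at 38.7, 57.5, 93.0 and 71.6 FPKM in P. The P range lay mostly within the NP range, and the means were 85.0 ± 42.8 and 65.2 ± 22.9 FPKM (SD, n = 4 each). Its log2 fold change was −0.32 (SE 0.59), with a limma adjusted p of 0.821, −0.09 after quantile normalization and 0.64 after median centring. As a share of the 4 H2A variant genes, H2afx was at 17.0%, 15.6%, 41.2% and 9.28% in NP and at 48.6%, 12.7%, 76.7% and 27.1% in P, and the datasets overlapped. The difference of 20.5 percentage points was 8.66 without P replicate 3. The deposited value is 1 per gene, so mRNA ending at the stem-loop and mRNA ending at the polyadenylation signal cannot be told apart.

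H2afy (chr13:56073619-56136361, − strand, 9 exons) encodes macroH2A1, a variant enriched on the inactive X chromosome, and was the lowest of the 10 genes by its mean in both datasets. It was at 4.14, 2.37, 3.29 and 9.05 FPKM in NP and at 3.56, 4.21, 7.47 and 0 FPKM in P. P replicate 4 had no read, which allows up to 0.165 FPKM, and the other P libraries lay within the NP range. The means were 4.71 ± 2.98 and 3.81 ± 3.06 FPKM (SD, n = 4 each). The log2 fold change of −0.47 (SE 0.92), with a limma adjusted p of 0.828, became 0.23 after quantile normalization, 0.48 after median centring and 0.16 without P replicate 4.

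By their mean levels per length in NP, the genes were ordered H1foo, H2afv, Npm2, H3f3a, H2afx, Slbp, H3f3b, H1f0, H2afz and H2afy. Npm2 and H3f3a were the only neighbours in this order whose ranges over the libraries did not overlap. In P the order was Npm2, H1foo, H3f3b, Slbp, H2afv, H3f3a, H2afx, H2afz, H1f0 and H2afy, and the neighbours without overlap were H1foo above H3f3b and H2afx above H2afz. The ranges of the remaining neighbours overlapped in both orders. Among these, H3f3a was above H2afx in 4 of 4 NP libraries and H2afz above H1f0 in 4 of 4 P libraries. By contrast, H2afv was above Npm2 in only 1 of 4 NP libraries, and Npm2 above H1foo in only 1 of 4 P libraries, so most libraries had the opposite order there. The 3 genes with a CPE had log2 fold changes of −0.60 (H1foo), −2.62 (H2afv) and −0.32 (H2afx). Among all genes tested these were at the 39.9th, 1.92nd and 53.9th percentile. The 7 without ranged from −1.55 for H1f0 to 1.58 for H2afz, with H3f3a at −0.23 and H2afy at −0.47 also below 0 and the rest above 0. Whether a CPE goes with the fold change was not tested. The short coding sequences of several histone genes set them apart from most genes, and the 1272 tested genes with a coding length of 300 to 600 bases had a median log2 fold change of −0.41, beside −0.40 for the 10266 genes with a longer one.

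The genes whose log2(FPKM + 1) values most resembled those of H1foo, H2afz and Slbp over the 8 libraries were looked up among 6415 genes with a mean above 10 FPKM in at least 1 dataset. The libraries share their depth and scaling across genes, so these coefficients are a description. For H1foo the highest Pearson coefficients were those of Olfr288 (0.984), Ap1m2 (0.970) and Acp5 (0.967). Those for Slbp were Mat2b (0.982), Bpgm (0.965) and Ppp3r1 (0.960). H2afz had lower ones, with Rapgef2 at 0.901, Pfn2 at 0.895 and D0H4S114 at 0.862.

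Genes that work with these 10 were read from the same fit, in 3 lists. None of their members was called by limma at an adjusted p below 0.1 or by voom. Of 18 other histone variants, 11 were in the table and 7 were tested, with a median log2 fold change of −0.33 (from −1.36 to 1.24), beside −0.39 for all genes tested, and none had an unadjusted p below 0.05, against 9.95% of all genes tested. Of these Hist1h2ba, which encodes the testis and oocyte variant of H2B, was the most abundant, at a mean of 478 FPKM in NP and 191 FPKM in P (log2 fold change −0.94, SE 0.79). Cenpa, the histone of the centromere, was at 17.3 FPKM in NP and 7.58 FPKM in P (log2 fold change −1.36, SE 0.93). Both were picked here after their values were seen.

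Of 41 chaperones and variant exchange factors, 38 were in the table and 37 were tested on 38 rows, since Srcap has 2 rows. Their median log2 fold change was −0.17 (from −2.12 to 1.01), and 1 had an unadjusted p below 0.05, against 9.95% of all genes tested. That gene, Znhit1, encodes a subunit of the SRCAP complex that places H2A.Z in nucleosomes. It was at 25.6, 18.6, 7.02 and 12.9 FPKM in NP and at 1.37, 5.53, 0.363 and 6.63 FPKM in P. All NP libraries lay above all P libraries, as they did for 5.92% of genes tested, and the log2 fold change was −2.12 (SE 0.87), with a limma adjusted p of 0.456. The opposite separation, found for 0.357% of genes tested, held for Anp32e, which encodes a chaperone that removes H2A.Z from nucleosomes. It was named after its values were seen, since it lies below the abundance set for naming genes. Anp32e was at 0.439, 0.216, 0.270 and 0.259 FPKM in NP and at 2.15, 5.25, 0.442 and 0.628 FPKM in P, with a log2 fold change of 1.01 (SE 0.56) and a limma adjusted p of 0.541. Its lowest P library and its highest NP library differed by little, at 0.442 and 0.439 FPKM.

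The partners of Slbp in the processing, binding and decay of histone mRNA made up the third list. Of 23 such genes, 20 were in the table and 19 were tested, with a median log2 fold change of −0.25 (from −2.33 to 0.99), none with an unadjusted p below 0.05 (9.95% of all genes tested) and none whose datasets were separated (0.357% with P above and 5.92% with NP above). Lsm11 and Lsm10, which belong to the U7 particle that cleaves histone precursor mRNA, were at 65.8 and 194 FPKM in NP and at 11.9 and 91.7 FPKM in P. Their log2 fold changes were −2.33 (SE 1.11) for Lsm11 and −1.38 (SE 0.91) for Lsm10, with limma adjusted p of 0.509 and 0.608. Both were picked after their values were seen, Lsm11 having the lowest log2 fold change of its list.

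**Figure D4:**
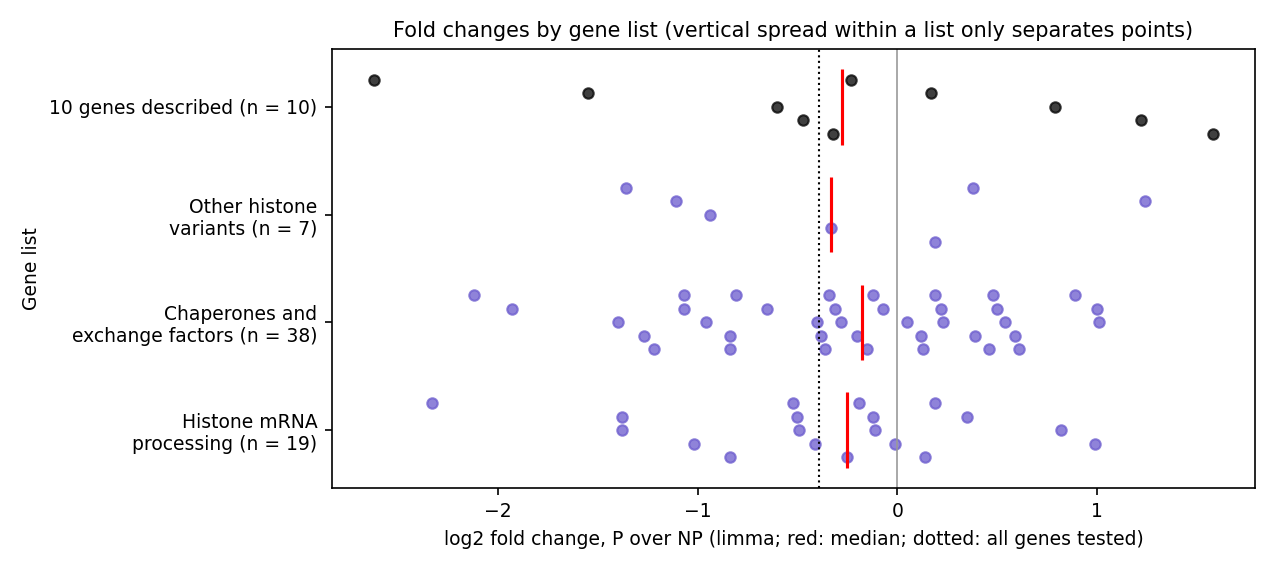
Log2 fold changes, P over NP, from limma (x axis) for the 10 genes described and for the 3 lists of other genes, with 1 point per tested row, the median of each list in red and the median of all genes tested dotted. The medians of the lists lie at −0.27, −0.33, −0.17 and −0.25, beside −0.39 for all genes tested.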

How the data were processed

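Mouse NEBD-stage oocyte libraries, 4 NP and 4 P, were grouped by their titles. Per the labels, the authors used Trim Galore 0.4.1 for trimming and HISAT2 2.0.5 for mapping to GRCm38, and they deposited FPKM values per gene and library made in Seqmonk, with no further normalization between libraries stated. The deposited group means and ratios and the authors' DESeq2 results were not used. The FPKM values were taken as deposited, and log2(FPKM + 1) was compared between P and NP by a 2-sided trended limma fit (version 3.58.1, R 4.3.3), restricted to genes that exceeded a mean of 0.1 FPKM in NP or P. Alternatives were quantile normalization, median centring, another pseudocount, other filters, a replicate block and leaving out each library. The main limma fit and the recovery of reads were checked on simulated data, and the voom fit was not. Voom on recovered reads was added after the data were seen. Reads were recovered for 15584 of 15585 genes with a value above 0, whole to within 0.01 reads plus 2e-06 of the count, for 6978 with the annotated exon length and for 8606 with a length searched so that they became whole; a step may be a read or a read pair. Intervals and limits of 0 (3 reads) cover counting error only, since cDNA was amplified without molecular identifiers. 3′ ends came from GENCODE M21, and coding sequences were matched to the genome with blastn 2.17.0. The named genes are the 10 described, genes of the lists that were called or separated with a mean above 10 FPKM, and the 3 genes most like H1foo, H2afz and Slbp; Anp32e, Hist1h2ba, Cenpa, Lsm10 and Lsm11 fall outside this rule and were chosen after their values were seen. The genes and lists were chosen with earlier results of these data known.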

Additional observations from a re-analysis of the deposited data

Results flagged for a closer look

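Among 20 groups of 4 values, 2 held a library far from the others by Dixon's gap at the 95% critical value, which chance alone passes in about 1 in 20 groups. Npm2 was at 4606 FPKM in P replicate 4, against 552 FPKM in the next P library (gap over range 0.911). H2afv was at 1376 FPKM in NP replicate 4, against 272 FPKM in the next NP library (gap over range 0.884). P replicate 4 was the shallowest P library, with a scaling number of 2677946, and NP replicate 4 the deepest NP library, at 7594637; the part of depth in these values was not tested.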

How the results depend on the processing

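None of the 10 genes was called under any alternative, the lowest limma adjusted p being 0.108 for H2afz after median centring. The number of all genes called, 3, was 0 after quantile normalization, 0 after median centring, 5 with a pseudocount of 0.1, 0 without a filter, 5 with a mean above 1 FPKM, 0 to 5 when a library was left out, 119 with voom on recovered reads and 8 with voom and quantile normalization; the cause was not tested. With the replicate block 1 gene was called and none of the 10. Same-numbered libraries deviated together with correlations of 0.139, 0.0518, 0.251 and 0.155, and other numbers with −0.135 to 0.136. Each P library correlated best with the NP library of its own number, but NP replicate 2 correlated best with P replicate 1. No label says that the numbers mark pairs, and the main fit did not take them as pairs, although they may be. Of 160 fold changes under alternatives, 150 kept their direction and 10 reversed. After median centring H1foo was at 0.35, H3f3a at 0.73, H2afx at 0.64 and H2afy at 0.48. That step adds the same amount to every fold change, and it moved the median of all genes tested from −0.39 to 0.57. Each gene therefore keeps its side of that median by construction. H2afy was at 0.23 after quantile normalization, where the median of all genes tested was −0.02. Without 1 library Npm2 ranged from −0.89 to 0.74 (−0.05 without NP replicate 1), H3f3a from −0.53 to 0.00 and H2afy from −0.86 to 0.16. H1f0, Slbp, H3f3b, H2afz and H2afv did not reverse in any of the 16 alternatives run. The P/NP ratio of Npm2 moved to 0.597 without P replicate 4. Each of the other 89 of 90 ratios moved by less than 1 SD of its gene's log2 values. That limit is wide where libraries spread widely, as for H2afv, whose ratio went from 0.283 to 0.666 without NP replicate 4. The 32 shares could not have moved by 1 SD, since leaving out 1 of 4 values shifts a mean by less than that. Depth limits H1f0, H2afz and H2afy most, with libraries of under 50 reads.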
